A study of Oryza sativa Japonica Group with 6 samples.

Results

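Proteases and the inhibitors that act on them were examined in the coleoptile of rice seedlings germinated under water. The members were chosen by the wording of the probe descriptions: cysteine, aspartic and serine proteases, oryzains, subtilisins, cystatins, carboxypeptidases, aminopeptidases, metalloproteases, Clp proteins and FtsH proteases, with proteasome subunits, Bowman-Birk inhibitors and heat shock proteins left out. They came to 138 of the 21495 probes on the array that were not controls. Of these, 126 were bright enough to be tested. Among the remaining 12, 11 were too dim and 1 had an outlier spot. A probe stands for 1 rice cDNA and is named here by the accession of that cDNA and by its description, which is often a best match from another plant. The 126 probes carried 68 descriptions, and 30 of these were shared by 88 probes, so some probes may report on the same gene.

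The study set wild-type coleoptiles against those of the *rad* mutant, whose ADH (alcohol dehydrogenase) activity is reduced. Both genotypes were of the cultivar Kinmaze, and both grew submerged, with 15 seeds in 1 L of deionized water. Coleoptiles were taken by laser microdissection from frozen sections of 8 µm, and amplified RNA of both genotypes was hybridised together on 6 two-colour arrays, as 3 replicates measured in both dye orientations. No aerated control, seedling age or nature of the *rad* lesion is given in the labels, so the transcript level of ADH cannot check them, and whether the replicates were grown separately is not given either. The p-values therefore reflect the spread among these 3 replicates, which may be technical. Bulk RNA cannot tell apart a change in the number of cells of a type from a change of RNA per cell.

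Proteases fall into endopeptidases, which cut inside a protein, and exopeptidases, which trim residues from an end. In a germinating cereal, papain-like and aspartic proteases and serine carboxypeptidases act largely in the vacuole and in secreted compartments, where they degrade stored and worn-out proteins to amino acids. FtsH and Clp are ATP-dependent proteases of plastids and mitochondria that remove damaged or surplus organelle proteins. Cystatins bind papain-like proteases in the active site and block them.

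Each ratio below is the log2 of mutant over wild-type signal, as mean ± SD of 3 replicates (n = 3), where a value of 1 is a doubling. A probe was called when its limma p-value, adjusted over all 19947 probes tested, was under 0.05. Of the 126 members, 10 were called higher in the mutant (7.94%) and 23 lower (18.3%). Among all probes tested, 14.6% were called higher and 10.1% lower. In either direction, 26.2% of the members were called against 24.7% of all probes. All 33 called members had the same sign in the 3 replicates and on the 6 arrays. A call over 3 replicates favours such agreement, which was not counted over all called probes. An unadjusted p under 0.05 was reached by 53 of the 126 members, and by 7637 of all 19947 probes. Of the 93 members that were not called, 82 had a 95% confidence interval within 0.5 on either side of 0.

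The changes were small. The median size of the called ratios was 0.42 for the members (0.39 for all called probes), and 14 of the 33 reached a size of 0.5. Only 1 member was called at least 2-fold higher and 1 at least 2-fold lower, where 1.79% and 0.822% of all probes were. The median ratio over the members was -0.01, the same as over all probes, and the members ranged from -1.02 to 1.12. In 19 members the 3 mutant levels all lay above the 3 wild-type levels, and in 24 they all lay below. The shares among all probes were 16.6% above and 12.4% below.

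**Figure D1:**
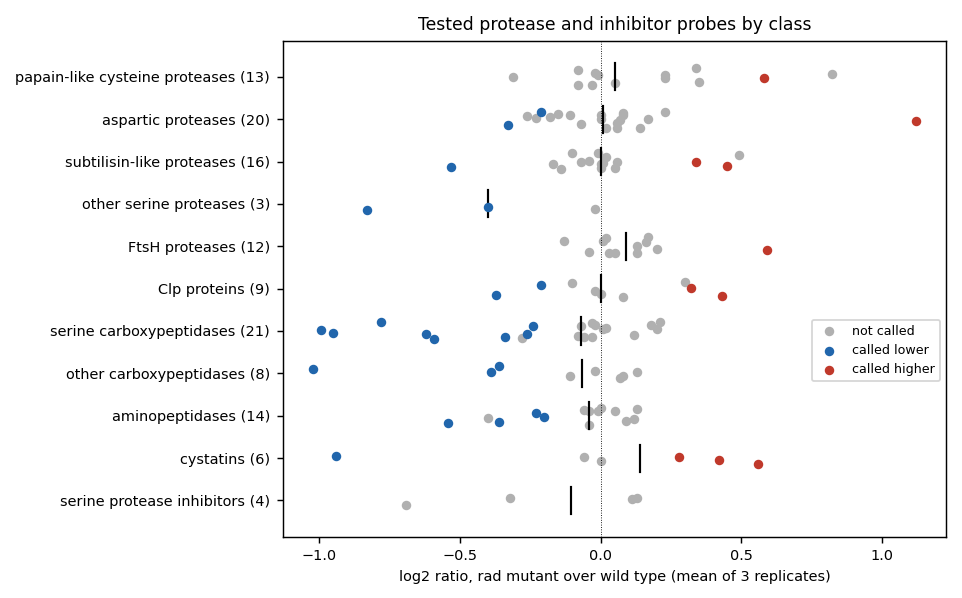
Each point is 1 tested probe at its mean log2 ratio of *rad* mutant over wild type (n = 3 replicates), in rows by protease or inhibitor class with the number tested in brackets; black ticks are class medians, red and blue points were called higher and lower and grey points were not called. The called serine carboxypeptidases, other carboxypeptidases and aminopeptidases all lie left of 0, and the nucellin-like aspartic protease at 1.12 lies farthest to the right.

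The calls in the higher and lower direction were not spread alike over the classes. All 15 called exopeptidases were lower, out of 43 tested (34.9%, where 10.1% of all probes were), and none was called higher. An unadjusted limma p under 0.05 was reached by 20 of the 43, and by 7637 of all 19947 probes. The 15 became 3 with replicate 1 left out, 5 with replicate 2 left out and 12 with replicate 3 left out. Exopeptidases with positive mean ratios were called under some other settings. With the replicate as a block these were AK058769 (0.18) and AK062220 (0.21), and with a dye term AK059488 (0.20) as well. AK058769 and AK059488 were also called without replicate 3, AK059488 with the mutant in Cy3 only, and AK068512 (0.12) after median centring. Endopeptidases and Clp proteins together gave 7 higher and 7 lower of 73 (9.59% each way). Cystatins gave 3 higher and 1 lower of 6. The grouping into exopeptidases was made after the values were seen, and the difference between groupings was not tested. Classes follow the wording of the descriptions, so the exopeptidases include probes such as AK064814, whose matched Arabidopsis gene encodes a carboxypeptidase-like acyltransferase. With the probe of highest mean intensity standing for each description, 9 of 22 exopeptidase descriptions were called lower. The share over all descriptions taken in this way was not computed, so the 10.1% of all probes is not its counterpart.

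**Figure D2:**
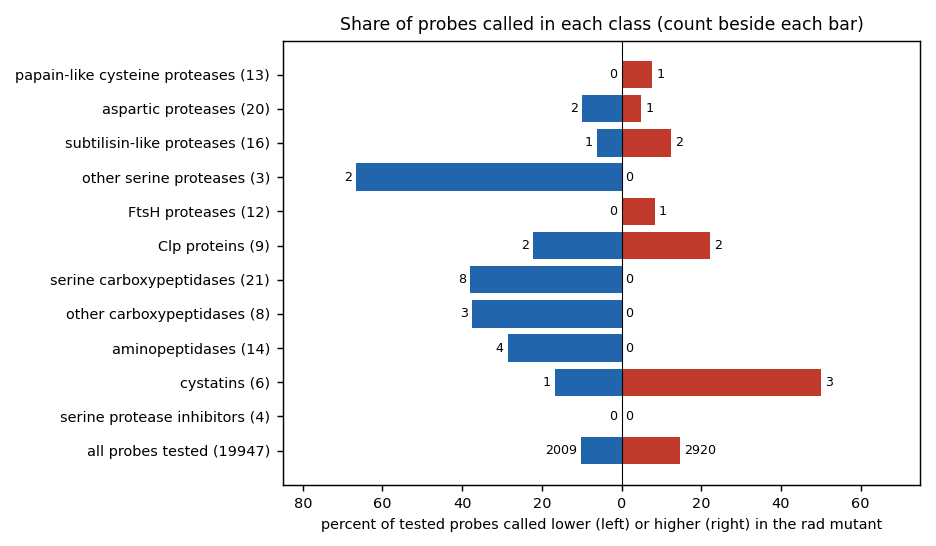
Bars give the percent of tested probes in each class that were called lower (blue, left) or higher (red, right) in the *rad* mutant, with the number of probes at the end of each bar and the number tested beside each name. The 3 exopeptidase classes have blue bars only, while the bar for all 19947 probes is longer on the red side.

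Replicates weighed heavily on the count of calls. With replicate 1 left out 10 of the 33 calls were kept, with replicate 2 left out also 10, and with replicate 3 left out 28. Such fits have only 2 replicates, and over all probes the share called fell to 7.47%, 5.94% and 22.9%. When the 6 arrays were fitted singly with the replicate as a block, all 33 calls were kept and the counts became 20 higher and 27 lower. That fit called 34% of all probes (3869 higher and 2912 lower), against 24.7% with the averaged replicates (2920 and 2009), so the rise was not particular to the members. No called member changed sign in any of these fits. There were 8 members called under each of the 16 other settings in which they were tested, and they are the nucellin-like aspartic protease AK061884, the FtsH AK064913, the cystatin AK073275, the subtilisin-like AK105749, the serine protease-like AK068610 and the carboxypeptidases AK064814, AK067912 and AK111818.

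**Figure D3:**
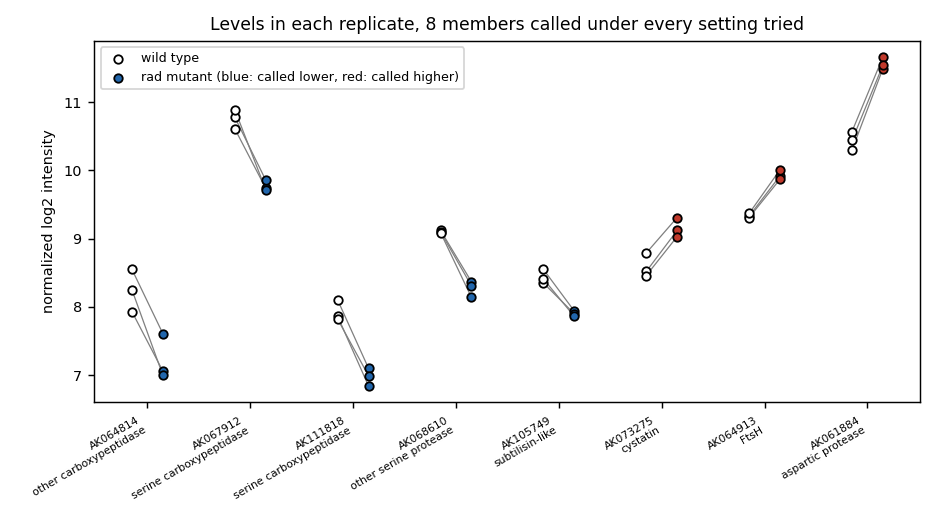
Open circles are wild-type and filled circles *rad* mutant levels (normalized log2 intensity) in the 3 replicates of the 8 members called under every setting tried, with grey lines joining the genotypes of a replicate; levels of different probes are not comparable. In all 8 the 3 mutant points lie on one side of the 3 wild-type points.

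Among the aspartic proteases, a nucellin-like cDNA rose more than any other member. Nucellin was described in barley as an aspartic protease-like protein of the degenerating nucellus. The maize-nucellin-like AK061884 had wild-type log2 intensities of 10.30, 10.57 and 10.44 in replicates 1, 2 and 3, and mutant intensities of 11.49, 11.66 and 11.54. Each mutant level exceeded each wild-type level by more than the range of either genotype. The ratios were 1.18, 1.09 and 1.09, with a mean of 1.12 ± 0.05 (2.18-fold, adjusted p = 0.00208), which is rank 298 among all rises. A second cDNA with the same description, AK064771, read 0.08 ± 0.14 and was not called (adjusted p = 0.401).

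Aspartic proteases gave 1 higher and 2 lower of 20 tested, with a median of 0.01. CND41, a tobacco protein of the chloroplast nucleoid that binds DNA and has aspartic protease activity, was the commonest description. Of 11 CND41-like cDNAs 1 was called: AK072228 had ratios of -0.38, -0.27 and -0.33 (-0.33 ± 0.06, adjusted p = 0.0109). Its mutant and wild-type levels overlapped, because replicates differed more from each other (wild type 9.34, 9.75 and 9.82) than the genotypes did within a replicate. The other 10 ranged up to 0.17, and AK068441 was not well above background in the mutant on any array (-0.26 ± 0.15, adjusted p = 0.0632). The rice aspartic proteinase AK066523 was lower by a small margin (-0.21 ± 0.03, adjusted p = 0.0220). AK065206, which shares its description, read -0.02, -0.08 and -0.59 (-0.23 ± 0.31, adjusted p = 0.267), and the 5 tested cDNAs described as rice aspartic protease ran from -0.18 to 0.23 with none called. The adjusted p of AK072228 rose to 0.0607 when replicate 1 was left out and to 0.0625 when replicate 2 was, and that of AK066523 was 0.0945, 0.116 and 0.0627 without each of the 3 in turn, so these calls were then lost.

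Papain-like cysteine proteases gave 1 call among 13 tested. The called probe, AK063422, matches the putative cysteine proteinase At3g54940 of Arabidopsis and had ratios of 0.75, 0.69 and 0.29 (0.58 ± 0.25, 1.49-fold, adjusted p = 0.0254). Its mutant level was lowest in replicate 3, at 8.65, and lay above the highest wild-type level, 8.36. It was no longer called when replicate 1 (adjusted p = 0.123) or replicate 2 (0.124) was left out.

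The oryzains, papain-family proteases first isolated from germinating rice seeds, did not pass the test and differed between replicates. Oryzain beta (AK109371) had ratios of 1.41, 0.93 and 0.11, so that replicates 1 and 2 showed a large ratio and replicate 3 almost none. On the 2 arrays of each replicate the values were 1.37 and 1.45, 0.99 and 0.87, and 0.11 and 0.11, which places the difference between replicates and not between dyes. The mean was 0.82 ± 0.66 (adjusted p = 0.0966). Without replicate 3 it was 1.17 with an adjusted p of 0.0135, and with the replicate as a block the adjusted p was 0.0107. The block fit took the arrays of a replicate to correlate at 0.206 for every probe. For AK109371 the 2 arrays of a replicate agreed more closely than that, so this p-value may be too small. Wild-type levels of AK109371 were 12.02, 12.15 and 12.45 and mutant levels 13.43, 13.08 and 12.56. A second cDNA described as oryzain beta, AK107506, was too dim to be tested.

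Oryzain alpha (AK071913) had ratios of 0.35, 0.15 and 0.54 (0.35 ± 0.19, adjusted p = 0.0505). Mutant levels of 13.54, 13.44 and 13.46 lay above wild-type levels of 13.19, 13.29 and 12.93. The adjusted p was 0.0493 under a stricter filter on dim probes. With the replicate as a block it was 0.00682, with the same limit as for oryzain beta. Oryzain gamma (AK066748), the oryzain most like the vacuolar protease aleurain of barley, had ratios of 0.10, -0.29 and -0.74 (-0.31 ± 0.42, adjusted p = 0.258) and overlapping levels. The probe for SAG12, a protease of senescing Arabidopsis leaves, was not well above background in either genotype on any array and was not tested.

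Some root-specific transcripts also differed between the replicates, with replicate 3 apart, as it was for oryzain beta and AK063422. Other variable members differed in more than 1 way. AK063833 stood apart in replicate 3, AK058739 fell in replicate 3 alone, and AK069220 stood apart in replicate 1. Over all probes, replicates 1 and 3 correlated least (0.755, against 0.885 for 1 and 2 and 0.840 for 2 and 3). Over the 6 tested probes described as root-specific RCc2 or RCc3, median ratios were -0.65, -0.66 and 0.01 in replicates 1, 2 and 3. Replicate 3 stood apart for AK062381 (-1.50, -1.43 and -0.64), AK102086 (-1.02, -0.94 and 0.10) and AK063684 (-2.32, -2.03 and 0.11). AK063090 read -0.27, -0.38 and -0.28, while AK108560 and AK109149 had mean ratios of -0.00 and -0.01. Of these 6, 2 were called lower and none was called higher. The summed intensity of the 6 was 57925 to 75505 in the wild type and 23086 to 60252 in the mutant, and none was at background throughout in either genotype. Without AK063684 the sums were 22243 to 27470 in the wild type and 13462 to 21767 in the mutant. Whether root tissue in the sections had a part in the protease values was not tested.

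**Figure D4:**
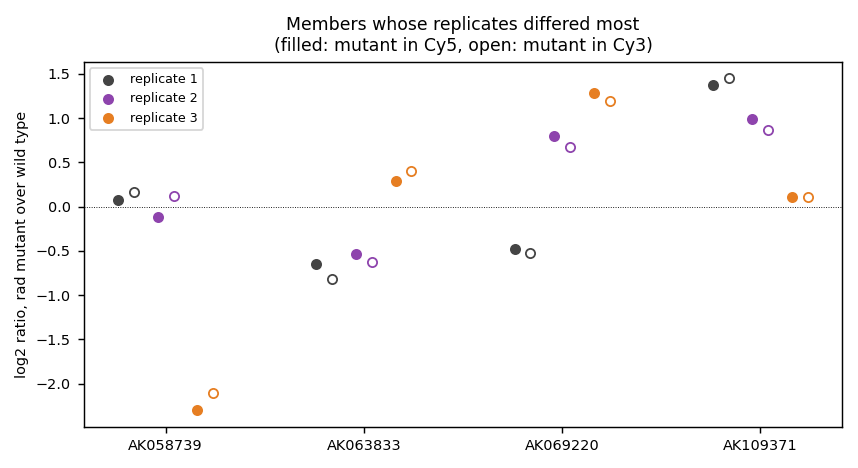
Points are log2 ratios of *rad* mutant over wild type on single arrays for the 4 members whose SD over replicates exceeded 0.5, with filled points where the mutant was in Cy5 and open points where it was in Cy3; colours mark the replicate. For oryzain beta (AK109371) and AK069220 the arrays of a replicate lie closer to each other than to those of another replicate, as at 1.37 and 1.45 in replicate 1 and 0.11 on both arrays of replicate 3 of AK109371. For AK058739 and AK063833 replicates 1 and 2 lie near each other and replicate 3 lies apart.

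Subtilisin-like serine proteases gave 2 higher and 1 lower of 16 tested, with a median of -0.00. The cDNA like At5g19660, which in Arabidopsis encodes the site-1 protease that releases membrane-bound transcription factors, had ratios of 0.56, 0.43 and 0.37 (AK071415, 0.45 ± 0.10, adjusted p = 0.00937). Its mutant levels were 9.91, 9.68 and 9.82 and its wild-type levels 9.35, 9.25 and 9.44. All mutant levels were thus the higher ones, although the call was lost without replicate 2 (adjusted p = 0.0625).

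Probes like ARA12, a secreted Arabidopsis subtilase needed for the release of seed mucilage, went both ways. AK105749 had ratios of -0.61, -0.44 and -0.55 (-0.53 ± 0.08, adjusted p = 0.00618), with wild-type levels of 8.55, 8.35 and 8.41 against 7.94, 7.90 and 7.86. AK101646 had ratios of 0.47, 0.39 and 0.17 (0.34 ± 0.16, adjusted p = 0.0341), and AK106527 was not called (-0.14 ± 0.17, adjusted p = 0.246). The rise of AK101646 was not called without replicate 1 or 2 (adjusted p = 0.139 and 0.163) nor in the dye orientation that put the mutant in Cy3 (ratio 0.21, adjusted p = 0.0675). A tomato-like subtilisin, AK069220, was among the most variable members: its ratios were -0.50, 0.73 and 1.24 (0.49 ± 0.90, adjusted p = 0.378), so that replicate 1 ran against the others.

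Of 3 other serine proteases 2 were lower. AK068610, which matches a putative serine protease-like protein of Arabidopsis (At4g17100), had wild-type levels of 9.12, 9.10 and 9.09 and mutant levels of 8.37, 8.31 and 8.14. The 3 wild-type levels were almost equal and all lay above the mutant levels, with a mean ratio of -0.83 ± 0.11 (1.78-fold lower, adjusted p = 0.00442). AK069810, like a tobacco serine protease-like protein, had ratios of -0.52, -0.44 and -0.25 (-0.40 ± 0.14, adjusted p = 0.0190), a call that ended when replicate 1 or 2 was dropped (adjusted p = 0.0890 and 0.109). AK070514, like Omi, a mitochondrial serine protease of the mouse, read -0.02 ± 0.16 (adjusted p = 0.836).

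Among the FtsH proteases the clearest rise was in a plastid form. AK064913 resembles tobacco Pftf, an FtsH-like protein of the chloroplast, and had ratios of 0.59, 0.56 and 0.63 (0.59 ± 0.04, 1.51-fold, adjusted p = 0.00405). Wild-type levels were 9.33, 9.31 and 9.37, and mutant levels were 9.92, 9.87 and 10.01, without overlap. The second Pftf-like cDNA, AK063733, was close to background, well above it in the wild type on 3 of 6 arrays, and read -0.13 ± 0.28 (adjusted p = 0.475). Of 12 FtsH probes this was the 1 called. Another 9 had positive ratios that did not pass the test, and 6 cDNAs like the Arabidopsis FtsH of At5g53170 ran from -0.04 to 0.17.

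Clp proteins moved in both directions, with 2 higher and 2 lower of 9. CLPD1 (AK068727), a chloroplast ATP-binding subunit that unfolds substrates and whose Arabidopsis counterpart is induced by dehydration, had ratios of 0.50, 0.50 and 0.28 (0.43 ± 0.13, adjusted p = 0.0153), whereas AK061666 of the same description read 0.08 ± 0.07 (adjusted p = 0.252). AK064073, like the proteolytic subunit ClpP of At5g23140, had ratios of -0.25, -0.41 and -0.45 (-0.37 ± 0.10, adjusted p = 0.0152), and its counterpart AK065162 read -0.00 ± 0.08 (adjusted p = 0.985). ClpX1, an ATP-binding subunit that feeds substrates to ClpP, was matched by both AK106477 at 0.32 ± 0.10 (adjusted p = 0.0188) and AK070098 at -0.21 ± 0.09 (adjusted p = 0.0419). These probes share a description and were called in opposite directions. All 4 Clp calls ended when replicate 2 was left out (adjusted p from 0.0920 to 0.148), and only AK064073 was kept when replicate 1 was (adjusted p = 0.0418). AK070098 was also not called when replicate 3 was left out (0.0699), after median centring (-0.20, 0.0582) and with the mutant in Cy3 (-0.21, 0.106).

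Leaf transcripts bear on plastid proteases, and their levels are given beside them. Of 35 tested probes for photosystem proteins, chlorophyll a/b-binding proteins and the Rubisco small subunit, 2 were called higher and 9 lower, with a median of -0.07 and a range of -0.46 to 0.49. Their summed intensity was 27821 to 30081 in the wild type and 31705 to 32661 in the mutant, and 1 of the 35 was not well above background in the mutant on any array. The order of the sums was set by 1 bright Rubisco small subunit probe, AK070556 (0.49): without it they were 17786 to 18671 in the wild type and 16266 to 17642 in the mutant. The part of leaf tissue in the FtsH and CLPD1 values was not tested. The lists held no single marker that defines the coleoptile.

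Serine carboxypeptidases, which release amino acids from the C-terminal end of proteins and whose family also holds acyltransferases, were the largest class and had the most calls. Of 21 tested 8 were lower (38.1%, where 10.1% of all probes were) and none was higher, with a median of -0.07. AK058769, AK059488 and AK062220 had positive ratios that were called only under other settings, as given above. By share called in either direction, cystatins and other serine proteases (66.7% each) and Clp proteins (44.4%), all smaller classes, stood higher. AK067912, like the serine carboxypeptidase of At5g36180, had wild-type levels of 10.61, 10.78 and 10.89 and mutant levels of 9.74, 9.86 and 9.72. The lowest wild-type level exceeded the highest mutant level, and the mean ratio was -0.99 ± 0.16 (1.98-fold lower, adjusted p = 0.00488). The other 3 tested cDNAs with this description ranged up to 0.01, with none called.

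AK111818 resembles At4g30610, which in Arabidopsis is BRS1, a secreted carboxypeptidase that acts in brassinosteroid signalling. Its wild-type levels were 8.10, 7.86 and 7.82 and its mutant levels 7.10, 6.84 and 6.99, so the genotypes did not overlap. The ratio was -0.95 ± 0.11 (1.93-fold lower, adjusted p = 0.00391). Of 5 cDNAs that share this description, AK106800 was also lower (-0.34 ± 0.13, adjusted p = 0.0265), and the remaining 3 were not called.

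AK069959, like the carboxypeptidase II of At5g08260, had ratios of -0.79, -0.96 and -0.58 (-0.78 ± 0.19, adjusted p = 0.00858). Its wild-type levels of 7.95, 8.01 and 7.95 lay above mutant levels of 7.16, 7.05 and 7.37. A second cDNA of this description, AK105830, was too dim to be tested. Both cDNAs like At1g28110 were lower: AK070195 read -0.51, -0.78 and -0.48 (-0.59 ± 0.16, adjusted p = 0.0113) and AK059293 read -0.37, -0.20 and -0.14 (-0.24 ± 0.12, adjusted p = 0.0496). The second of these was barely past the threshold and its levels overlapped between genotypes. Of 7 cDNAs like carboxypeptidases of germinating barley grain, which digest storage protein there, CP-MIII (AK073508) read -0.62 ± 0.19 (adjusted p = 0.0136) and II-1 (AK071183) read -0.26 ± 0.08 (adjusted p = 0.0227). The other 5 were not called and ranged up to 0.21.

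Leaving out replicate 1 ended 6 of the 8 calls of serine carboxypeptidases, all but AK067912 and AK111818 (adjusted p from 0.0641 to 0.117). Leaving out replicate 2 ended 4, those of AK106800, AK059293, AK073508 and AK071183 (from 0.0634 to 0.174), and leaving out replicate 3 ended those of AK071183 and AK059293 (0.0575 and 0.0547). AK059293 was also lost under 7 other settings, with adjusted p between 0.0508 and 0.0795. The processed signals of the scanner software gave larger falls for AK111818 (-1.48), AK073508 (-1.34), AK069959 (-1.23) and AK106800 (-0.56), all of them called.

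Among 8 other carboxypeptidases 3 were lower. This class was set apart by the wording of the descriptions and may include members of the serine carboxypeptidase family. AK064814 had the lowest mean ratio of all members, although on the processed signals of the scanner software it read -1.47 and AK111818 -1.48. Its description names a putative carboxypeptidase (At5g09640), a gene that in Arabidopsis encodes a carboxypeptidase-like acyltransferase that makes sinapoylcholine. Wild-type levels were 7.93, 8.25 and 8.55 and mutant levels were 7.06 in replicate 1, slightly lower in replicate 2 and 7.61 in replicate 3. Ratios of -0.87, -1.24 and -0.94 gave a mean of -1.02 ± 0.20 (2.02-fold lower, adjusted p = 0.00591), which is rank 176 among all falls. The second cDNA with this description, AK069378, read 0.08 ± 0.08 and was not called (adjusted p = 0.253).

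AK069026 resembles AMP1, a glutamate carboxypeptidase that limits the size of the shoot meristem in Arabidopsis, and had ratios of -0.55, -0.37 and -0.16 (-0.36 ± 0.20, adjusted p = 0.0461). The other 3 AMP1-like cDNAs ran from -0.11 to 0.07 and were not called. AK111439, like a tomato carboxypeptidase induced by wounding, had ratios of -0.27, -0.27 and -0.64 (-0.39 ± 0.22, adjusted p = 0.0463). Both calls ended when replicate 1 was left out (adjusted p = 0.141 and 0.127), and likewise for replicate 2 (0.185 and 0.118). With no subtraction of background AK069026 read -0.33 and missed the threshold (adjusted p = 0.0514). The processed signals of the scanner software gave AK111439 a larger ratio of -0.71 but no call (adjusted p = 0.0638), and gave AK069026 -0.57.

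Aminopeptidases, which trim the N-terminal end, gave 4 lower and none higher of 14. The 3 cDNAs described as methionine aminopeptidase-like, the enzyme that removes the initiator methionine from new proteins, were all lower. The other 2 of 5 tested methionine aminopeptidase cDNAs were not called. These were AK066289, like At1g13270 (-0.06 ± 0.08, adjusted p = 0.398), and AK066207, like At2g45240 (0.05 ± 0.14, adjusted p = 0.616). AK068716 had ratios of -0.45, -0.41 and -0.75 (-0.54 ± 0.18, adjusted p = 0.0166), with wild-type levels of 7.11, 7.07 and 7.19 above mutant levels of 6.66, 6.66 and 6.44. AK059240 and AK066776 read -0.23 ± 0.06 (adjusted p = 0.0258) and -0.20 ± 0.06 (adjusted p = 0.0324). Levels of AK066776 overlapped between genotypes, since its wild type ran from 9.81 to 10.15. A putative aminopeptidase like At1g63770, AK064900, read -0.51, -0.36 and -0.21 (-0.36 ± 0.15, adjusted p = 0.0270), while the other cDNA of that description, AK110087, read -0.01 ± 0.08 (adjusted p = 0.849).

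All 4 aminopeptidase calls ended when replicate 1 was left out (adjusted p from 0.0815 to 0.127) and when replicate 2 was (0.0625 to 0.186), and that of AK059240 also for replicate 3 (0.0724). On the processed signals of the scanner software AK066776 read -0.22 (adjusted p = 0.0502), and with the mutant in Cy5 it read -0.15 (adjusted p = 0.0855), so it was called in neither; AK068716 read -1.32 on those signals. The 3 cDNAs like aminopeptidase M, an Arabidopsis enzyme found through its binding of an auxin transport inhibitor, ran from -0.40 to 0.13 and were not called.

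**Figure D5:**
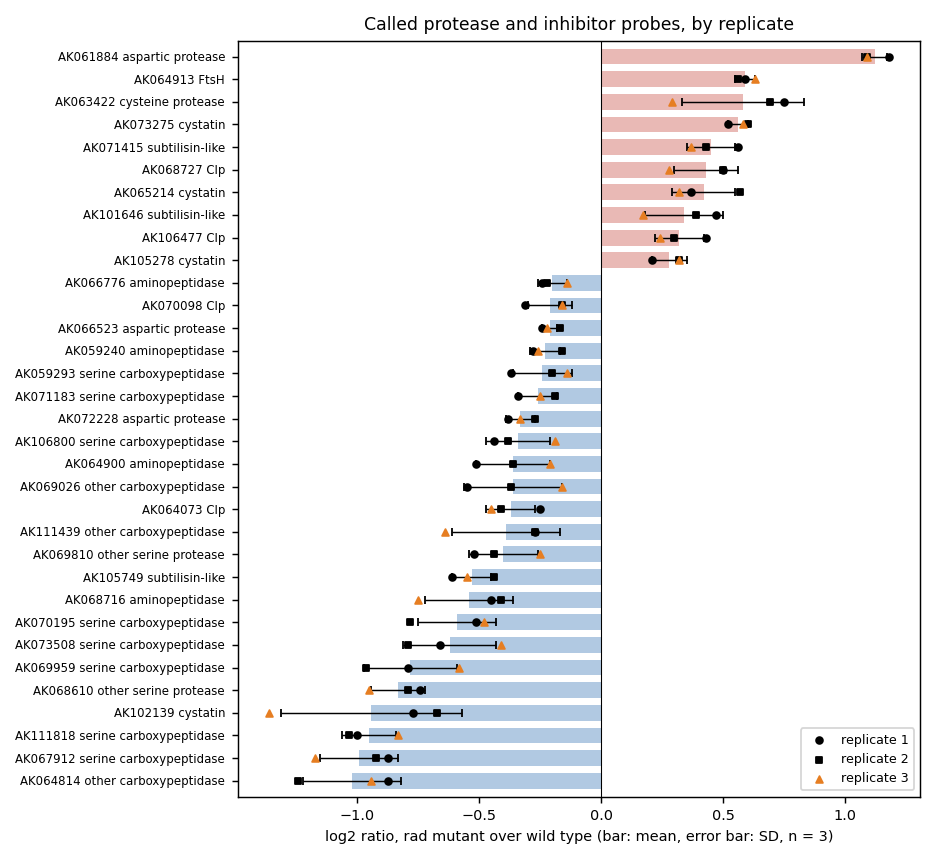
Bars are mean log2 ratios of *rad* mutant over wild type for the 33 called members, error bars are SD over 3 replicates, and black circles, black squares and orange triangles are replicates 1, 2 and 3; red bars were called higher and blue bars lower. Every replicate of a member lies on the same side of 0, with the widest spread at the extracellular insoluble cystatin AK102139, from -0.67 to -1.36.

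Of 6 tested cystatins 4 were called, 3 of them higher. AK073275, like a soybean cysteine proteinase inhibitor, had wild-type levels of 8.79, 8.52 and 8.46 and mutant levels of 9.31, 9.12 and 9.03. Its ratios of 0.52, 0.60 and 0.58 were close to each other (0.56 ± 0.04, 1.48-fold, adjusted p = 0.00442). AK065214, like a cystatin of the lily relative Sandersonia, had ratios of 0.37, 0.57 and 0.32 (0.42 ± 0.13, adjusted p = 0.0166), with wild-type levels of 10.96, 10.79 and 10.86 below mutant levels of 11.32, 11.36 and 11.18.

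The cDNAs described as oryzacystatins, the seed cystatins of rice, differed among themselves. AK105278 had ratios of 0.21, 0.32 and 0.32 (0.28 ± 0.07, adjusted p = 0.0164) from a dim signal, well above background in the wild type on 4 of 6 arrays. Its ratio was 1.05 when computed from the processed signals of the scanner software. Oryzacystatin AK061770 read -0.06 ± 0.06 (adjusted p = 0.372) and oryzacystatin-II (AK061025) 0.00 ± 0.05 (adjusted p = 0.983), with 95% intervals of -0.17 to 0.05 and -0.10 to 0.10.

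AK102139, like the extracellular insoluble cystatin of carrot, a cell wall protein, was the 1 cystatin that fell. Its mutant levels were 9.23, 8.93 and 8.61, all under the lowest wild-type level, 9.60. The size of the fall differed between replicates (ratios of -0.77, -0.67 and -1.36; -0.94 ± 0.37, adjusted p = 0.0193). Dropping replicate 1 ended the calls of AK102139, AK065214 and AK105278 (adjusted p = 0.0919, 0.0831 and 0.0515), and so did dropping replicate 2 (0.0603, 0.0671 and 0.112). AK065214 read 0.64 with the mutant in Cy5 but 0.20 with the mutant in Cy3, where it was not called (adjusted p = 0.114).

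None of the 4 serine protease inhibitors was called, and none reached an unadjusted p under 0.05. The maize-like subtilisin-chymotrypsin inhibitor AK058739 had ratios of 0.13, 0.00 and -2.21 (-0.69 ± 1.31, adjusted p = 0.394), so that replicate 3 alone showed a low mutant level, at -2.30 and -2.11 on its 2 arrays. Without replicate 3 the mean was 0.06. AK063833, of the same description, had ratios of -0.74, -0.58 and 0.35 (-0.32 ± 0.58, adjusted p = 0.379) and read -0.66 with an adjusted p of 0.0102 without replicate 3. The barley-like inhibitor AK062495 read 0.11 ± 0.17 (adjusted p = 0.351) and the rice alpha-amylase/subtilisin inhibitor AK106723 read 0.13 ± 0.32 (adjusted p = 0.526).

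The members differed a little more between replicates than probes at large. The median SD over replicates was 0.0876 for the members and 0.0783 for all probes. An SD over 0.5 was found in 4 members (AK058739, AK069220, AK109371 and AK063833) and in 300 of all probes (1.5%). Among the brighter 63 members 21 were called, and among the dimmer 63, 12. All probes were not split in this way, so the counts cannot be read as a trait of the members.

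Of 30 probes for related functions outside the chosen wording, 5 were called, where 24.7% of all probes were. Lon1 (AK061670), an ATP-dependent protease of the mitochondrial matrix, was higher (0.40 ± 0.09, adjusted p = 0.0106). The beta subunit of the mitochondrial processing peptidase (AK060718), which removes targeting sequences, was lower (-0.33 ± 0.05, adjusted p = 0.0103), as was a signal peptidase subunit (AK071238, -0.26 ± 0.02, adjusted p = 0.0129). The list held 11 tested probes for Lon, DegP, signal peptidases and organelle processing peptidases, and the other 8 were not called. Of 3 autophagy proteins, the APG5-like AK063557, part of the machinery that forms autophagosomes, was higher (0.40 ± 0.14, adjusted p = 0.0184). Of 2 cDNAs like a latex-abundant protein of the metacaspase family, AK072822 was lower (-0.48 ± 0.12, adjusted p = 0.0114), and the other read -0.08 and was not called. None of 8 other protease inhibitors and none of 6 vacuolar sorting proteins was called by limma, with 1 of each under an unadjusted p of 0.05. All 5 of these calls ended when replicate 1 was left out (adjusted p from 0.0513 for AK072822 to 0.102 for AK063557) and when replicate 2 was (from 0.0545 for AK063557 to 0.0970 for AK071238).

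Markers of other tissues that sections of a seedling could include were mostly not called. Of 15 probes for storage and late embryogenesis proteins, 1 was called, the late embryogenesis-abundant Lea14-A-like AK061818 (1.53), and no glutelin, globulin, prolamin or oleosin was. Summed intensities of the 15 were 4515 to 4673 in the wild type and 4992 to 5353 in the mutant, but 3991 to 4119 and 3585 to 3779 without AK061818. Probes described as alpha-amylase, listed as aleurone markers, gave 2 lower of 14, with sums of 2374 to 2454 and 2228 to 2312. AK073487 (-0.16) is described as a rice alpha-amylase. AK065152 (-0.36) matches a putative Arabidopsis alpha-amylase and may not mark the aleurone. Without AK065152 the sums were 2033 to 2083 in the wild type and 1961 to 2016 in the mutant. Laccases, as markers of secondary walls, gave no call among 9 and none under an unadjusted p of 0.05, with sums of 3715 to 4373 and 3264 to 4361. In none of these lists was a tested probe at background on all arrays of a genotype. Their part in the values of the proteases was not tested.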

How the data were processed

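RNA of mutant and wild-type coleoptiles was measured on 6 Agilent arrays of design 012106, read with Feature Extraction 8.5.1.1 per the file headers. The deposited scanner files give mean and local-background intensity per spot and channel, without normalization, together with processed signals and their log10 ratio (Cy5 to Cy3), which were background-subtracted and dye-normalized, per the file headers. Other deposited columns are flags of 0 or 1, here a score per spot. The deposited value table holds log10 ratios. They equal the scanner's log10 ratio within 5e-06, with the sign turned on colour-swapped arrays, so they run as mutant over wild type; column medians lay between -0.000509 and 0.

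Log2 ratios were computed with limma 3.58.1 in R 4.3.3: normexp with an offset of 50, then loess within arrays with control spots at weight 0. The offset draws ratios of dim probes towards 0. A probe was kept when well above background in one genotype on at least 4 of 6 arrays (20213 probes), and 266 with an outlier spot were left out. Dye-swap arrays of a replicate were averaged, and 3 replicates were fitted with lmFit and eBayes (two-sided, Benjamini-Hochberg over 19947 probes). The script was tested on simulated data. Saturated spots were kept; no member was saturated.

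The titles give the replicate numbers. After the mean of each dye orientation was subtracted, ratios correlated between same-numbered arrays at 0.805, 0.663 and 0.840, and between different numbers at -0.662 to -0.115. The subtraction itself pulls the correlations between different numbers below 0. Without it, correlations were 0.881 to 0.896 between same-numbered arrays and 0.669 to 0.818 between different numbers. Correlations of the averaged ratios between replicates were 0.885 (1 and 2), 0.755 (1 and 3) and 0.840 (2 and 3), across probes, which are not independent. Between 90.4% and 95.7% of probes were well above background per channel, at a median signal of 4 to 10.3 times background, and precision is limited by the number of arrays. Each array was on a slide of its own.

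Members, classes and comparison lists were chosen with earlier results of these data known, and the class patterns were refined from the descriptions. Named were, per class, up to 4 called members with the smallest p and the same sign in all replicates, the member with the largest ratio, all members of classes with at most 5 tested, members sharing a named description (by name, or by range where several), and up to 2 called members of each comparison list. The other called members, oryzain alpha and gamma, the oryzacystatins not called, AK069220, AK068441, AK071238 and the marker probes were named after their values were seen. So were the exopeptidases called higher under other settings, AK066289, AK066207, AK107506 and AK105830. Marker sums without 1 probe were added then too. None of the cDNA accessions matched the gene table used here, so loci and positions are not given.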

Additional observations from a re-analysis of the deposited data

How the results depend on the processing

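The counts changed most with the replicates. Leaving out each in turn gave 3 to 15 members called higher (10 with all), 6 to 19 called lower (23), 3 to 12 exopeptidases called lower (15), and 755 to 2746 higher (2920) and 429 to 1827 lower (2009) over all probes. Fewer replicates enter these fits. Fitted as 6 arrays with the replicate as a block, 20 members were called higher, and 21 with a dye term as well. No call was lost and 27 were lower in both, while 34% and 32.1% of all probes were called. Taking 1 probe per description gave 14 members and 9 exopeptidases called lower, from 68 and 22 probes. The same reduction was not made over all probes. The remaining counts stayed within 1.5 times under the settings tried for background, scanner signals, normalization, filters, dye orientation and variance moderation.

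Over the 57 members and list probes examined one by one, 22 of 910 values had the opposite sign, none of them called: AK058739 without replicate 3 (-1.10 to 0.06 over the replicates left out); AK070514 with the mutant in Cy5 only (0.05) and without replicate 1 (-0.08 to 0.07); AK063733 with the mutant in Cy3 only (0.04) and without replicate 1 (-0.24 to 0.03); AK069378 with the mutant in Cy3 only (-0.00); AK065162 on the scanner's processed signals and in the deposited table (0.02 in both), with the mutant in Cy3 only (0.06) and without replicate 1 (-0.04 to 0.04); AK110087 on those signals and in that table (0.02), after median centring (0.00), with the mutant in Cy5 only (0.03) and without replicate 1 (-0.06 to 0.03); and AK061025, at 0.00, which lay between -0.03 and -0.00 under 7 settings (-0.00, -0.01, -0.02 and -0.03). Another 78 lost and 8 gained a call. The scanner's processed signals and the deposited table, which use no offset, gave 9 called members ratios more than 1.5 times larger: AK105278 1.05, AK111818 -1.48, AK069959 -1.23, AK073508 -1.34, AK068716 -1.32, AK111439 -0.71, AK069026 -0.57, AK106800 -0.56 and AK070098 -0.40. Slide could not be used as a block, since each held 1 array.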
